A study of Mus musculus with 2 samples.

Results

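DNase I sites were described in 8 mouse genes that hold many separate peaks: Fgfr2, Gse1, Elmsan1, Nfic, Glis1, Psd, Iqsec1 and Sfi1. They are 8 of 21938 protein-coding genes of GENCODE M21 and were chosen by the number of peaks called in and around their bodies in these libraries, so their peak counts are a description and were not tested. DNase-seq cuts nuclei with DNase I and sequences the cut ends, which marks open chromatin. The tissue was whole spleen of 14-day-old male B6CASTF1/J mice, an F1 cross with 1 set of chromosomes from each parental strain. The study had 1 group of 2 biological replicates with 1 library each: spleens of 3 males went into replicate 1 and the spleen of 1 male into replicate 2, under 1 donor entry in the labels. There was no untreated, mutant or other comparison group, so a difference between the replicates has no replicate check, and the material, the animals and the library cannot be told apart in it. In whole tissue, fewer cells with an open site and less opening per cell also cannot be told apart.

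Each library came with 2 peak lists, and the list with fewer bases, here called strict, was the main one. It held 48286 peaks in replicate 1 and 28837 in replicate 2. Strict promoter peaks in both replicates were found at 5 of 6 B cell genes, 5 of 5 erythroid genes, 2 of 3 T cell genes, 2 of 3 macrophage genes and 1 of 3 spleen stroma genes, with none at the spleen stroma genes Tlx1 and Nkx2-5. Of 8 genes of other tissues, 3 (Cela1, Syn1 and Ckm) had such a peak as well. Over all protein-coding genes the share with a strict promoter peak in both replicates was 51.2%. The read depth is unknown, and all coordinates are on mm10.

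A peak inside a gene can be a promoter, the promoter of a neighbouring gene, or a distal element such as an enhancer or an insulator, and a long gene body simply offers more room for all of them. Fgfr2 encodes a receptor tyrosine kinase for fibroblast growth factors. Gse1 encodes a protein found with the CoREST histone demethylase and deacetylase complex, and Elmsan1, named Mideas in RefSeq, a scaffold of the mitotic deacetylase complex. Nfic encodes a transcription factor of the nuclear factor I family and Glis1 a zinc finger transcription factor related to the GLI proteins. The products of Psd and Iqsec1 are guanine nucleotide exchange factors that load the small GTPase ARF6 with GTP, and the Sfi1 product binds centrins at the centrosome.

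Intronic sites carried strong peaks in most of these genes. The lines below give, for 6 of the genes, the strongest strict peak called in both replicates that overlaps no UTR (for Fgfr2, only near its usual gene body), and for Glis1 also the strongest of a group of weak peaks described further on. All are reference sequence of the plus strand of mm10, 5′ to 3′, with the interval of replicate 1 except for the weak Glis1 peak, which only replicate 2 had. Capitals mark bases inside footprints, the short stretches protected from cutting inside open chromatin, that both replicates called (for the weak Glis1 peak, those of replicate 2). The Fgfr2 peak held no such bases.
Gse1 chr8:120369001-120369200: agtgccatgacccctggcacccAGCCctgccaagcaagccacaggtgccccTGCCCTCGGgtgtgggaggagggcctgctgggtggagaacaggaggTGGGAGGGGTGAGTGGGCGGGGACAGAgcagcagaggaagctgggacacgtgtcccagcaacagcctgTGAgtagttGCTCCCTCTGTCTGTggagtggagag
Elmsan1 chr12:84175661-84175880: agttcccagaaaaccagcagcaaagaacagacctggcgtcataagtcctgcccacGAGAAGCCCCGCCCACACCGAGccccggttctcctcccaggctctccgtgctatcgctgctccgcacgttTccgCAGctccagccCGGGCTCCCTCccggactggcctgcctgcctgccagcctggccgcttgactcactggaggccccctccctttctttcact
Nfic chr10:81432961-81433180: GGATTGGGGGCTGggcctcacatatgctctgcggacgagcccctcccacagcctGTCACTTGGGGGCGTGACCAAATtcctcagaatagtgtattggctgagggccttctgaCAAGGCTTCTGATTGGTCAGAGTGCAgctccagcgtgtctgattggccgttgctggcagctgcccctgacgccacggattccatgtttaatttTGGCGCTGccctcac
Iqsec1 chr6:90710021-90710220: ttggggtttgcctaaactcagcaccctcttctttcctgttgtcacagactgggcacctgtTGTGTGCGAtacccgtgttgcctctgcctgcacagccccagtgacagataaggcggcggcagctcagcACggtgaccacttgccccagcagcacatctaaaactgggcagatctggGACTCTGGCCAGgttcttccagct
Glis1 chr4:107453701-107453900: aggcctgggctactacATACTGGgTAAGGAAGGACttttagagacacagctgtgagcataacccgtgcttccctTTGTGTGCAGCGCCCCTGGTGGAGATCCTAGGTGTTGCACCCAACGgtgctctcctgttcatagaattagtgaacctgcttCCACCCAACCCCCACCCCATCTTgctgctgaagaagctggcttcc
Glis1, weak peak, chr4:107549101-107549340: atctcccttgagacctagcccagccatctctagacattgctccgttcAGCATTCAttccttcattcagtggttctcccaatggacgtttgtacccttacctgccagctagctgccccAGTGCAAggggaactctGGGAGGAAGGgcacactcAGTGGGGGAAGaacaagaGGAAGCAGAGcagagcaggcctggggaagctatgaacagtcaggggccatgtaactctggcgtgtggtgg
Fgfr2 chr7:130273317-130273410: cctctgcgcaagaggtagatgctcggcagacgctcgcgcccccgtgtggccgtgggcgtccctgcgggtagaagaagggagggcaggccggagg

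The Gse1 sequence carries a GC box (GGGCGG) within its footprints, as does the Elmsan1 sequence, which also has an AP-1 consensus (TGANTCA) outside them. A CCAAT box lies in a footprint of the Nfic sequence, and the Iqsec1 sequence has a GATA site (AGATAA, on either strand) outside its footprints. These strings are common: in 200-base windows around all strict peaks of replicate 1, 30.1% held the GC box, 5.22% the AP-1 consensus, 22.3% CCAAT and 8.39% the GATA site, both strands searched. Over all member peaks of replicate 1 the shares were 27.7%, 8.46%, 20.4% and 6.92%. In replicate 2 the member shares were 22.4% for the GC box, 7.31% for AP-1, 21.5% for CCAAT and 5.94% for GATA, against 41.2%, 3.86%, 23.7% and 5.18% of all strict peaks. The GC box was thus rarer in the member peaks of replicate 2 than in all its peaks, and AP-1 was more frequent in both replicates. The CTCF consensus was found in 5% and 3.65% of member peaks, against 7.74% and 8.34% of all peaks. None of these strings contains another, and a match is a description of the letters only.

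The 8 genes, each widened by 10 kb on both sides, held 260 strict peaks in replicate 1 and 219 in replicate 2 (mean 240 ± 29, SD, n = 2). Over all protein-coding genes the median was 1.5 peaks a gene, averaged over the replicates, and the 99th percentile 10.5. Fgfr2 had 83 and 48 peaks (65.5 ± 24.7, SD, n = 2) and Gse1 43 and 30 (36.5 ± 9.19). Elmsan1 had 31 and 7 (19 ± 17), Nfic 29 and 23 (26 ± 4.24), and Glis1 4 and 49 (26.5 ± 31.8). Psd had 20 and 22 (21 ± 1.41), Iqsec1 25 and 14 (19.5 ± 7.78) and Sfi1 25 and 26 (25.5 ± 0.707). Sfi1 had nearly the same count in both replicates, while Glis1 and Elmsan1 differed between them in opposite directions. The lists differ in size, and with the 28837 strongest peaks of each, Sfi1 had 23 and 26, but Psd had 10 and 22 and Nfic 12 and 23. Joining peaks that overlap left nearly the same numbers, for example 82 and 46 stretches in Fgfr2 and 29 and 6 in Elmsan1. Joining peaks within 150 bases of each other left 38 of the 49 in Glis1 in replicate 2, 21 of 29 in Nfic and 24 of 31 in Elmsan1 in replicate 1, and 16 of 22 in Psd in replicate 2.

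**Figure D1:**
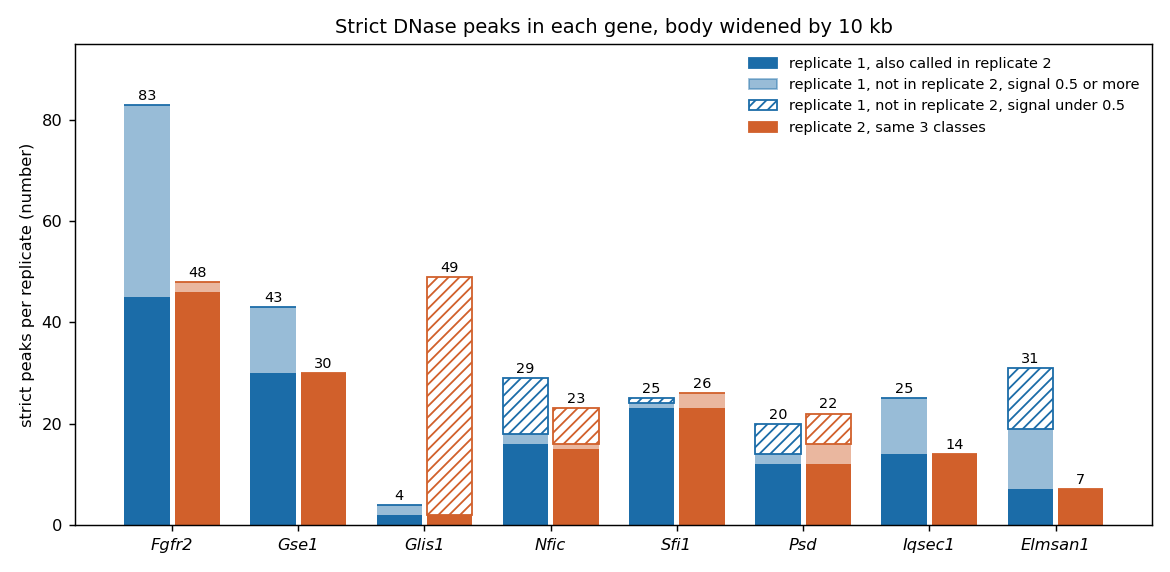
Number of strict peaks in each gene widened by 10 kb, 1 stacked bar per replicate (blue, replicate 1; orange, replicate 2), split into peaks called in both replicates, peaks of signal 0.5 or more called in that replicate alone, and peaks of signal under 0.5 called in that replicate alone (hatched). The 49 peaks of Glis1 in replicate 2 are nearly all hatched, and all 30 of Gse1 and 14 of Iqsec1 in replicate 2 were also called in replicate 1.

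The list does not follow the mean strict count without gaps. Elmsan1 had the lowest mean of the members, 19, and Prkce (26 and 12 peaks) had the same mean, while Mid1 (14 and 26, mean 20) and Bcor (28 and 11, mean 19.5) were above it and are not members. Just below were Midn, Rere and Rhof, each with a mean of 18.5. Gm20388, with 287 and 189 peaks over a 4434.9 kb model, had the most of all and is not a member. The protein-coding gene outside the list with the nearest pair of counts, by distance of log2(count + 1) over the 2 libraries, was Midn (23 and 14) for Iqsec1, Foxp1 (28 and 7) for Elmsan1, Acap3 (4 and 28) for Glis1, and Rhof (19 and 18) for each of the other 5.

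Per length the genes were far apart. Psd, with a body of 15.1 kb, had 57.0 and 62.7 strict peaks per 100 kb of its widened window and ranked 3 of 21938 genes by this measure. Nfic (36.5 and 28.9 per 100 kb), Sfi1 (30.6 and 31.9) and Elmsan1 (34.6 and 7.8) followed at ranks 129, 159 and 603. Fgfr2, with 2.78 and 1.61 per 100 kb, ranked 12581, and Iqsec1 and Gse1 lay between. Bases listed at a false discovery rate under 0.05 were also densest in Psd, with 262 and 322 per kb, against 8.72 and 5.22 per kb over the genome. Nfic had 128 and 192 per kb and Sfi1 115 and 110, while Elmsan1 (166 and 39.7) and Glis1 (7.6 and 90.4) differed between the replicates as their counts did. In Gse1 they were 59 and 35.3 per kb, in Iqsec1 27.1 and 13.6 and in Fgfr2 13.9 and 7.3. Every base of the members' strict peaks was among the listed bases.

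**Figure D2:**
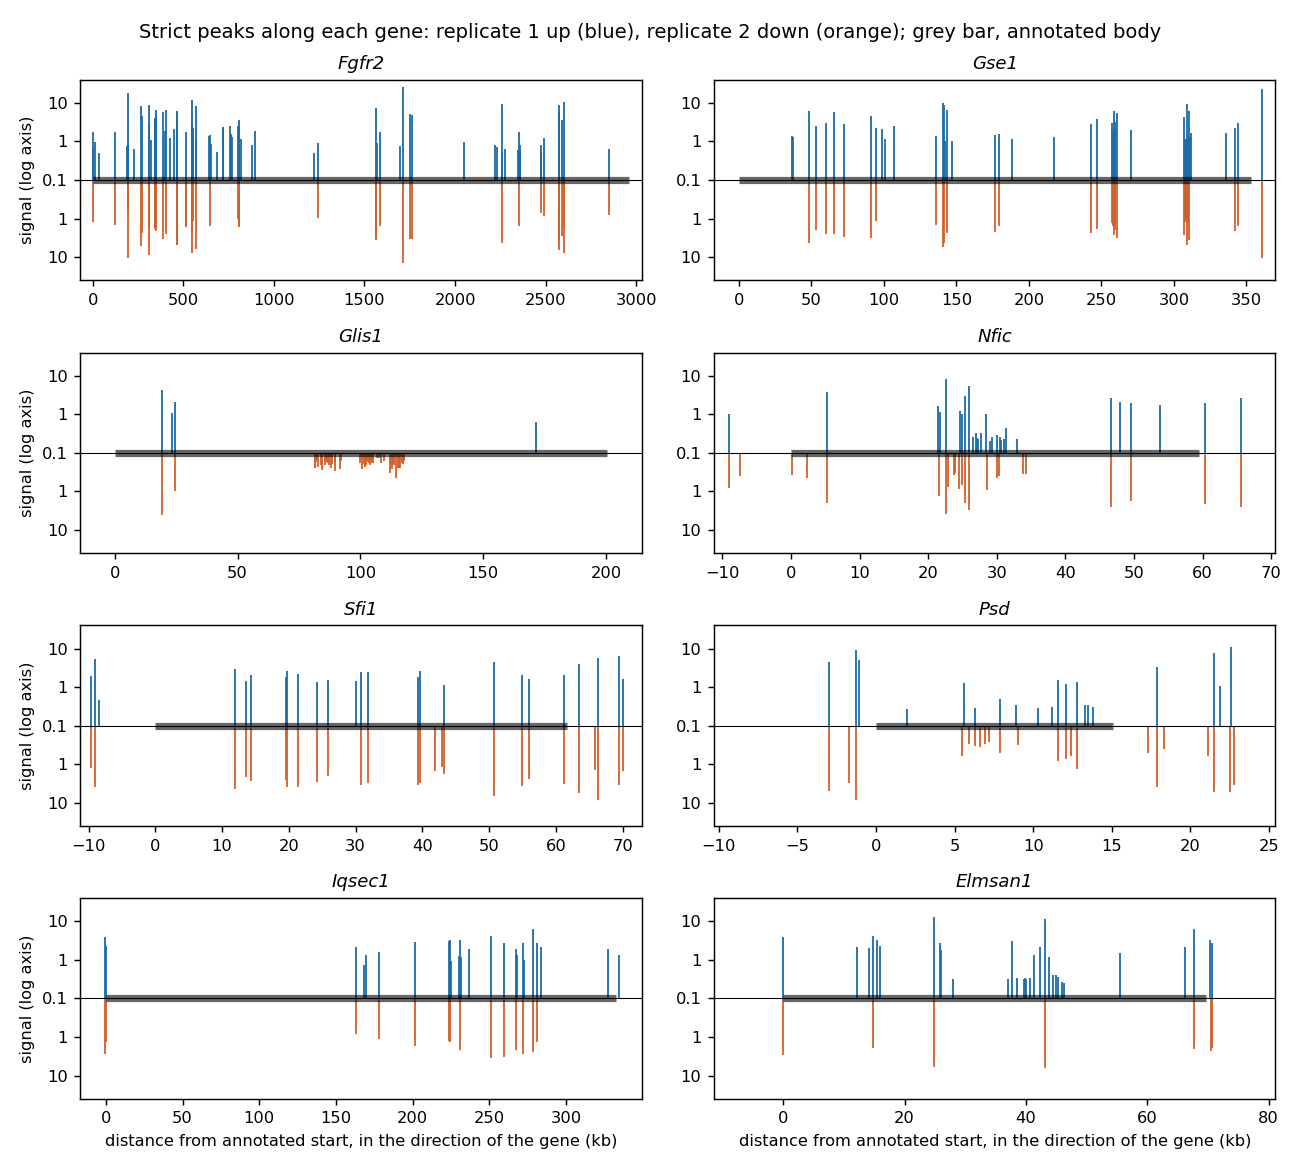
Strict peaks along each gene, by distance from the annotated start in kb (x axis) and signal on a log axis (y axis, replicate 1 upward in blue, replicate 2 downward in orange); the grey bar is the annotated gene body. In Gse1 and Iqsec1 every peak of replicate 2 has a counterpart in replicate 1, but not the reverse; the block of short bars in Glis1 appears in replicate 2 alone and a block in Elmsan1 in replicate 1 alone.

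Of the member peaks, 57.3% in replicate 1 and 68.0% in replicate 2 overlapped a strict peak of the other replicate by at least 1 base (149 peaks in each), where over all strict peaks the shares were 53.1% and 89.1%. The member share was thus near the background in replicate 1 and under it in replicate 2. Start sites, taken as within 1000 bases of any annotated transcript start, held 36.5% and 35.6% of member peaks against 46.9% and 60.9% of all strict peaks. Of these, 44 and 32 peaks lay at a start of the member itself and 51 and 46 at a start of another gene. Introns held 143 and 120 member peaks (55% and 54.8%), exons 18 and 17, and the flanks 4 and 4. Of all strict peaks 25.6% and 16.4% were intronic by the same order of classes, but member peaks lie in or near a gene by the choice of windows. A footprint lay in 85.4% and 78.5% of member peaks, against 89.5% and 88.4% of all strict peaks. The larger lists held 351 and 311 peaks in the same windows, out of 71274 and 44049.

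Peak signal, the authors' height of a peak on a scale that no source used here explains, ranged from 0.138 to 25.2 in the member peaks. Signal under 0.5, a limit set after the values were seen, was found in 34 member peaks of replicate 1 (13.1%) and 64 of replicate 2 (29.2%), against 3.36% and 6.44% of all strict peaks. The weak peaks of replicate 1 lay in Nfic (13), Elmsan1 (12), Psd (8) and Sfi1 (1). Those of replicate 2 lay in Glis1 (47), Nfic (9) and Psd (8). Fgfr2, Gse1 and Iqsec1 had none. Of the weak member peaks, 11.8% and 6.25% were shared, near the 7.21% and 6.03% of all weak peaks. Without them 64.2% and 93.5% of member peaks were shared, against 54.7% and 94.8% of all peaks at or above this limit, so the member share of replicate 2 then lay close to the background. The intronic member peaks were then 124 of 226 (54.9%) and 67 of 155 (43.2%), against 25.5% and 15.4% of all strict peaks at or above this limit.

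Peaks in the strict list of 1 replicate with no overlap in the strict list of the other differed in strength between the genes. In replicate 1 the strongest of them had signal 5.00 in Psd, at the start of Fbxl15, 3.29 in Elmsan1, 2.50 in Gse1, 2.48 in Fgfr2, 2.20 in Iqsec1, 2.02 in Nfic, 1.44 in Sfi1 and 1.09 in Glis1. In replicate 2 it had 3.37 in Psd, at the Nfkb2 start, 1.58 in Fgfr2, 1.5 in Sfi1, 0.765 in Nfic and 0.439 in Glis1. There was none in Gse1, Iqsec1 and Elmsan1. Each of the replicate 1 peaks named here outside Psd overlapped a larger-list peak of replicate 2. Its signal was 1.49 in Elmsan1, 1.11 in Gse1, 0.919 in Fgfr2, 0.992 in Iqsec1, 1.18 in Nfic, 0.919 in Sfi1 and 0.724 in Glis1. Of the replicate 2 peaks only that of Sfi1 had one, with 0.848. The Psd peaks lie beside shared peaks, chr19:46328341-46328560 and chr19:46304481-46304740.

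**Figure D3:**
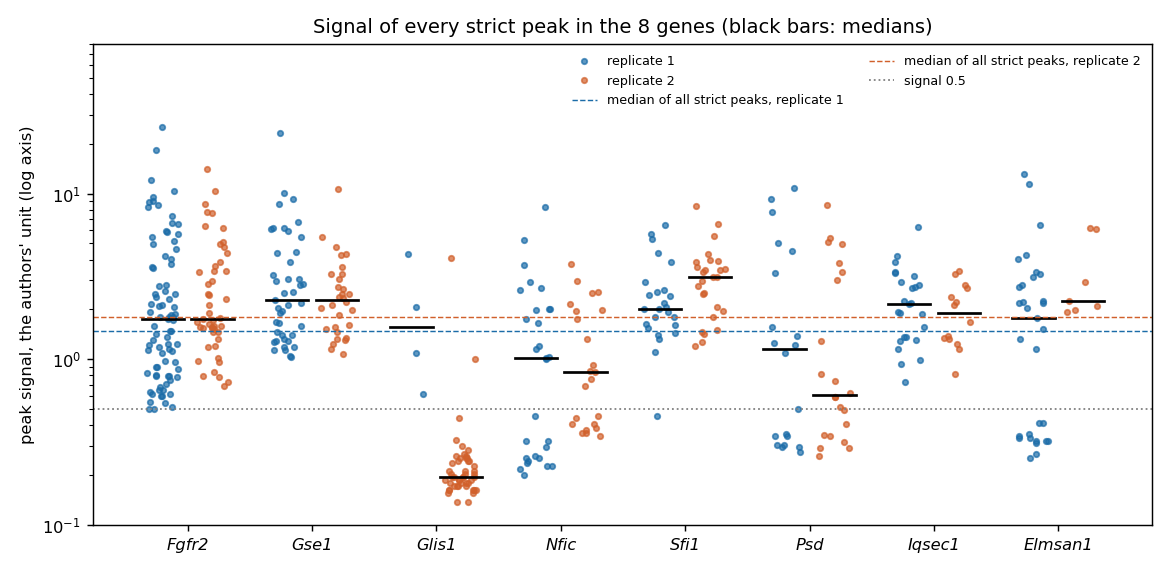
Signal of every strict peak in the 8 genes on a log axis, 1 point per peak and 1 column per replicate, with black bars at the median, dashed lines at the medians of all strict peaks (1.49 in replicate 1, 1.79 in replicate 2) and a dotted line at 0.5. The peaks of Glis1 in replicate 2 cluster near 0.2, well apart from its 2 stronger peaks, and a gap near 0.5 is also seen in Nfic and in Elmsan1 of replicate 1, but not in Psd of replicate 2, whose signals run through 0.5.

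Fgfr2 owed its count to the length of its gene model. In GENCODE M21 the gene spans 2960.9 kb (chr7:130162451-133123350, minus strand), but only 1 of its 27 transcripts, Fgfr2-217 with transcript support level 5, reaches that far, and the next longest spans 103.8 kb. RefSeq gives the gene 104.4 kb on the same assembly. Within the RefSeq span widened by 10 kb, each replicate had 1 strict peak, the sequence shown above, at chr7:130273317-130273410 with signal 0.655 in replicate 1 and at chr7:130273346-130273415 with 0.789 in replicate 2. It lay 7054 bases from the nearest annotated start of the gene. No other strict peak was called there. The larger lists held 4 and 1 peaks, and 1 of the 4 in replicate 1, chr7:130266272-130266385 with signal 0.470, lay 9 bases from a start of the shorter transcripts. The remaining 82 and 47 peaks lay beyond the RefSeq window.

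The long model runs over 30 other protein-coding genes, and 34 and 28 of the Fgfr2 peaks were at their starts or those of noncoding neighbours. The strongest was at the start shared by Acadsb, an acyl-CoA dehydrogenase, and Ikzf5, an Ikaros family zinc finger gene, with signal 25.2 in replicate 1 and 14.1 in replicate 2. The start of Zranb1, a deubiquitinase, had 18.3 and 10.4, and that of Oat, ornithine aminotransferase, 12 and 7.78. The 3 peaks of replicate 1 and 1 of replicate 2 assigned to a start of Fgfr2 itself are at the far end of the long transcript and lie within 1000 bases of a start of Ctbp2 too, a transcriptional corepressor, with signal up to 1.73 and 1.20. Other peaks were intronic in the long model, the strongest at chr7:132811021-132811220 with signal 9.01 and 8.60. Of the 48 peaks of replicate 2, 46 were shared with replicate 1, and the longest stretch without a peak was 327 kb in replicate 1 and 497 kb in replicate 2. In the related genes, promoter peaks in both replicates were found at 4 of 7 FGF receptor and substrate genes, Fgfr2 with its far start included, where 51.2% of all protein-coding genes had one. The adaptor genes Frs2 (11.5 and 7.37) and Frs3 (10.6 and 7.28) and the decoy receptor gene Fgfrl1 (6.35 and 3.64) had them. Fgfr1 (0.755) and Fgfr3 (0.739) had one in replicate 1 alone, and Fgfr4 none.

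Gse1 (chr8:120228456-120581390, plus strand, 352.9 kb) had the next highest count, which was the same in the GENCODE and RefSeq models. All 30 peaks of replicate 2 were called in replicate 1 too, 30 of 43 peaks in replicate 1 and 18 of 30 in replicate 2 were intronic, and none was weak. The strongest peak was outside the body at the start of Gins2, a subunit of the GINS replication complex, with 23.2 in replicate 1 and 10.7 in replicate 2. Within the gene the intronic peak shown above, chr8:120369001-120369200, came next with 10.1 and 5.47. The strongest at a start of Gse1, chr8:120537281-120537520, followed with 9.25 and 4.79, and lies 308.9 kb into the gene, where shorter transcripts begin. A further intronic peak near the first, chr8:120370021-120370240, had 8.71 and 4.30. The longest stretch without a peak was 36.5 kb in replicate 1 and 63.2 kb in replicate 2. Shared peaks were higher in replicate 1 at 25 of 30 sites, with a median ratio of 1.62. Over all shared strict peaks 88.5% were higher in replicate 1, and the median ratio was 1.49. These ratios are read as if the 2 libraries had a common signal scale, for which no source used here gives evidence. Of the partners of the CoREST complex, 7 of 7 genes had promoter peaks in both replicates, against 51.2% of all protein-coding genes. Among them were Rcor1 (28.2 and 14.0) and Hmg20b (25.7 and 11.6).

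Iqsec1 (chr6:90656088-90988685, minus strand, 332.6 kb) resembled Gse1 in that all 14 peaks of replicate 2 were called in replicate 1. This also held for the 7 peaks of Elmsan1 in replicate 2, but for no other member. Of all strict peaks of replicate 2 that were not weak, 94.8% were shared, so full sharing alone does not mark out these genes. The strongest Iqsec1 peak of replicate 1 was the intronic one shown above, chr6:90710021-90710220, with 6.29 and 2.37. The peak at chr6:90737521-90737680, at the start of a shorter Iqsec1 transcript, was more alike in the replicates, with 4.20 and 3.43. The intronic peak chr6:90728761-90728940 was the next strongest in replicate 2, with 2.73 in replicate 1 and 3.28 in replicate 2. The stronger peak at the annotated start, chr6:90989101-90989280, had 3.84 and 2.70. Between the annotated start and the next peak there was a stretch of 163 kb without a strict peak in either replicate, and every other peak of the body lay beyond it. Start sites of Iqsec1 itself held 12 of 25 and 8 of 14 peaks. Among its relatives, Iqsec3 had promoter peaks of 1.95 and 1.80, and Iqsec2 had none, where 51.2% of all protein-coding genes had them in both replicates.

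Psd (chr19:46312087-46327156, minus strand), the other ARF6 exchange factor gene, is short and lies among neighbours with strong promoters. The strongest peaks of its window were at the start of Nfkb2, a subunit of NF-kB (10.8 in replicate 1 and 5.39 in replicate 2), and of Fbxl15, an F-box protein gene (9.29 and 8.49). The body itself held 13 and 12 strict peaks. In replicate 1 the strongest there was intronic, chr19:46315401-46315640, with 1.56, against 0.813 in replicate 2. In replicate 2 it was at an internal start of Psd, chr19:46314241-46314540, with 1.29, where replicate 1 had 1.38. The densest 10 kb of the window held 12 of 20 and 12 of 22 peaks. In each replicate 8 peaks were weak (0.277 to 0.353 in replicate 1, 0.26 to 0.496 in replicate 2), of which 2 in each were shared. Without the weak peaks the window held 12 and 14, of which 10 and 10 were shared. Among its relatives, Psd3 (3.52 and 2.07) and Psd4 (3.45 and 2.04) had promoter peaks in both replicates and Psd2 had none. Of the ARF6 pathway genes, 4 of 4 (Arf6, Arf1, Cyth1 and Cyth3) had promoter peaks in both replicates, against 51.2% of all protein-coding genes. Their signal in replicate 1 was 17.2 (Arf1 and Cyth3) to 25.1 (Cyth1).

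Elmsan1 (chr12:84149176-84218881, minus strand, 69.7 kb) had 31 peaks in replicate 1 and 7 in replicate 2, and all 7 were shared and higher in replicate 1, with a median ratio of 1.86. Its strongest peak was at an internal start, chr12:84193981-84194200, with 13.1 and 6.10. The intronic peak shown above, chr12:84175661-84175880, had 11.5 and 6.18. The peak at the annotated start, chr12:84218801-84219000, had 4.02 and 2.94, and the start of the neighbouring gene Pnma1 3.37 and 2.24. The densest 10 kb held 16 of 31 and 3 of 7 peaks. Around the intronic peak replicate 1 had 12 weak peaks with signal of 0.252 to 0.411 over 18.3 kb (chr12:84172559-84190894), none of which overlapped a strict or a larger-list peak of replicate 2. In that stretch 49.5% of the bases were listed under the false discovery limit in replicate 1 and 3.98% in replicate 2. Outside it, in the same window, the shares were 8.18% and 3.96%. Without the weak peaks the counts were 19 and 7. Of 4 genes listed with its complex, 3 (Dnttip1, Hdac1 and Hdac2) had promoter peaks in both replicates, against 51.2% of all protein-coding genes. Trerf1, also on the planned list, was not among those measured. Zfp541 had none, and Hdac1 and Hdac2 are also counted among the CoREST partners.

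Glis1 (chr4:107434591-107635061, plus strand, 200.5 kb) was the reverse. Apart from weak peaks it had 4 strict peaks in replicate 1 and 2 in replicate 2, all intronic, and no strict promoter peak in either. The larger list of replicate 1 had a peak 47 bases from the annotated start, chr4:107434416-107434544, with signal 0.671, and that of replicate 2 had none there. Both peaks of replicate 2 were shared: chr4:107453701-107453900, shown above, had 4.31 in replicate 1 and 4.07 in replicate 2, and chr4:107458981-107459280 had 2.06 and 1.00. The other 47 peaks of replicate 2 were weak, with signal of 0.138 to 0.439 (median 0.195), and lay in an intronic block of 36.3 kb (chr4:107515869-107552200) from 81.3 to 117.6 kb after the annotated start, with no exon of Glis1 in it. None overlapped a strict or larger-list peak of replicate 1, which had no peak of either list in the block, while the larger list of replicate 2 had 56. Listed bases under the false discovery limit made up 51.6% of the block in replicate 2, in 2 stretches with an empty gap from 93 to 98 kb between them, and 0 bases of it in replicate 1. The densest 10 kb held 16 of the 49 peaks of replicate 2. Outside the block the 2 replicates had 9.1 and 6.38 listed bases per kb. The count of Glis1 therefore rested on 1 block of 1 replicate. Of the 47 weak peaks 22 held a footprint, near the 46.2% of all weak strict peaks of replicate 2. The lowest false discovery rate within each of the 47 had a median of 5.39e-06 and was at most 0.000881. Strict peaks of the other member genes also had lowest rates under 0.001, so low rates alone do not mark out these peaks. Outside the block, the larger list of replicate 2 had non-strict peaks with signal 0.724, 0.716 and 0.561. Their lowest rates were 0.00567, 0.00363 and 0.0363, above those of the 47 weak peaks. Signal thus did not rank the calls alike inside and outside the block. What sets the block apart was not tested. Of 3 GLIS family genes only Glis2 had a promoter peak in both (2.95 and 2.45), where 51.2% of all protein-coding genes had one.

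**Figure D4:**
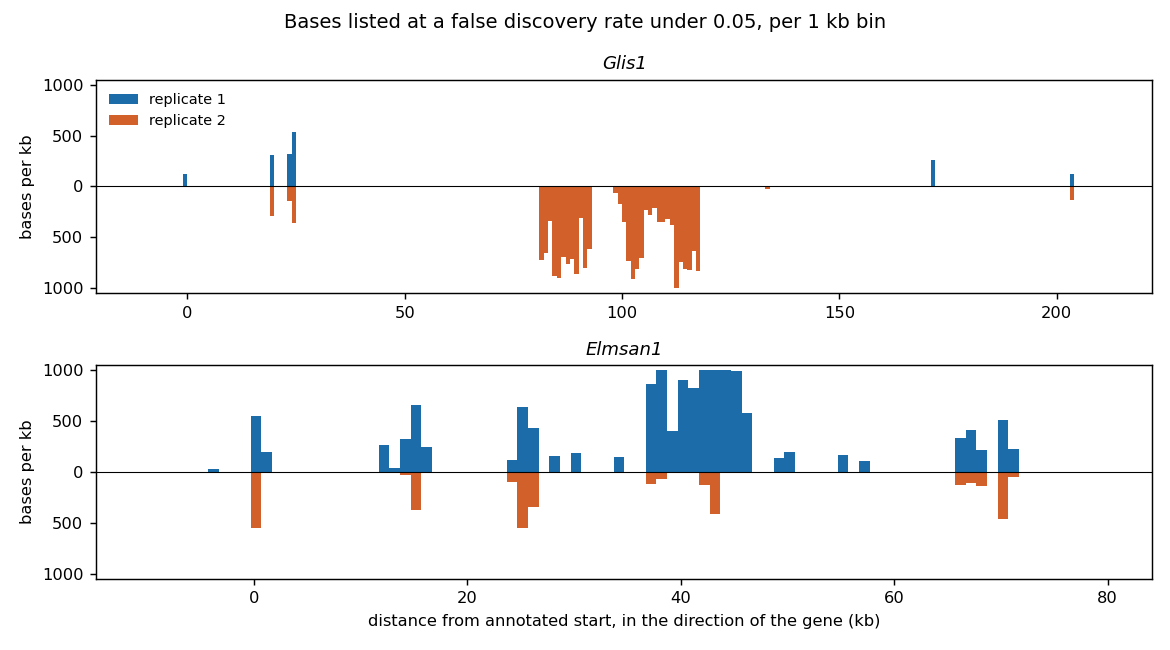
Bases listed at a false discovery rate under 0.05 in each 1 kb bin (y axis, bases per kb, replicate 1 upward in blue, replicate 2 downward in orange) along Glis1 and Elmsan1, by distance from the annotated start in kb. The Glis1 block between 81.3 and 117.6 kb holds listed bases in replicate 2 in 32 of 37 bins, on both sides of an empty gap from 93 to 98 kb, and none in replicate 1; the dense stretch of Elmsan1 has 49.5% of its bases listed in replicate 1 and 3.98% in replicate 2.

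Nfic (chr10:81396186-81455635, minus strand, 59.4 kb) had weak peaks in both replicates, 13 with signal of 0.201 to 0.453 in replicate 1 and 9 with 0.342 to 0.455 in replicate 2. The strongest peaks were intronic in the GENCODE model: chr10:81432961-81433180, shown above, had 8.32 and 3.76, and chr10:81429621-81429840 had 5.26 and 2.97. RefSeq starts the gene at chr10:81431919 (35.7 kb span), so the first of these peaks lies upstream of the RefSeq model. With the RefSeq span the counts of Nfic were 27 and 18. A start of Nfic at chr10:81430161-81430540 had 2.91 and 1.96. The neighbouring start of Gm48552 had 2.69 and 2.54. The Nfic peaks named here lie 22.6 to 25.9 kb after the GENCODE start. The densest 10 kb of the gene held 20 of its 29 peaks in replicate 1 and 12 of 23 in replicate 2. In the 6.6 kb that hold the weak peaks of replicate 1, 75% of the bases were under the false discovery limit in replicate 1 and 51.9% in replicate 2, so the stretch was dense in both. Of all strict peaks 98.9% and 98.6% overlapped the larger list of the same replicate, and of those of Nfic 26 of 29 and 23 of 23 did. The larger list of replicate 1 had 25 peaks in the window, fewer than its strict list, and that of replicate 2 had 50. Of its family, Nfia (12.4 and 5.78) and Nfix (5.31 and 3.13) had promoter peaks in both replicates and Nfib in replicate 1 alone (0.604). Over all protein-coding genes 51.2% had one in both. The palindromic nuclear factor I consensus, searched on both strands, was found in no member peak, and in 0.0663% and 0.052% of all strict peaks.

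Sfi1 (chr11:3131850-3193463, minus strand, 61.6 kb) stood apart in the direction of its signals. Of 23 peaks called in both replicates, 19 were higher in replicate 2, where 11.2% of all shared strict peaks were, and the median ratio of replicate 1 to replicate 2 was 0.679 (range 0.451 to 1.83). All 17 shared peaks within the GENCODE gene body were higher in replicate 2. The flanks of that body held 6 shared peaks, 4 higher in replicate 1 and 2 higher in replicate 2. Of the 4, 2 were at the start of Eif4enif1, a translation regulator gene (the stronger with 5.33 and 3.92). The other 2 of the 4 lay on the other side (6.45 and 3.53, 1.63 and 1.47), as did the 2 higher in replicate 2. RefSeq starts Sfi1 at chr11:3203347 (71.5 kb span), so the stronger Eif4enif1 peak lies within the RefSeq body. That all shared peaks of the body were higher in replicate 2 thus holds for the GENCODE model only. In the other 7 genes 106 of 126 shared peaks (84.1%) were higher in replicate 1. The strongest peak at a start of Sfi1, chr11:3142541-3142720, had 4.38 and 6.59. The GENCODE start itself had no strict peak, and the longest stretch without a peak was 20.2 kb and 20.7 kb. At the RefSeq start the larger list of replicate 2 had chr11:3202881-3203400 with signal 1.27, which overlapped a strict peak of replicate 1 with 1.92.

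Part of the Sfi1 window is present more than once in the reference. A second place of at least 90% identity over 80% of the peak was found for 9 of 25 peaks in replicate 1 (36%) and 11 of 26 in replicate 2 (42.3%). Over the 8 genes this held for 3.85% and 5.48% of peaks, and for 2.2% and 3.45% of a subset of 2000 strict peaks per replicate. Sequence marked as repeat made up over 50% of the bases in 3.08% and 3.2% of member peaks, against 3.95% and 2.75% of that subset. The strongest such peak of replicate 2, with signal 5.69 in replicate 1 and 8.45 in replicate 2, has a copy of 96.5% identity on chromosome 17 and of 92.67% on chromosome 5. This peak lies 66.3 kb after the annotated start of Sfi1, in the flank beyond its 61.6 kb body, and in an exon of another gene. The copies are shown with the peak, labelled by its window, to let the near identity be seen. They were read from the minus strand, and capitals mark bases that differ from the peak.
Sfi1 chr11:3127101-3127300: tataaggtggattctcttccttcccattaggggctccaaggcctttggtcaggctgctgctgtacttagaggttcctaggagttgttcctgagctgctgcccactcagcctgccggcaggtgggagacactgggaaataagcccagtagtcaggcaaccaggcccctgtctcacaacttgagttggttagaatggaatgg
Copy in Pisd-ps2 chr17:3081210-3081409: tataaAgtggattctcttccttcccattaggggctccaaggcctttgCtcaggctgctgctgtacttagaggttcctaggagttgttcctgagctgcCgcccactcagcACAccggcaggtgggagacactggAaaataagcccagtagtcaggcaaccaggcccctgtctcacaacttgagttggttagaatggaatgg
Copy in Pisd chr5:32740964-32741154: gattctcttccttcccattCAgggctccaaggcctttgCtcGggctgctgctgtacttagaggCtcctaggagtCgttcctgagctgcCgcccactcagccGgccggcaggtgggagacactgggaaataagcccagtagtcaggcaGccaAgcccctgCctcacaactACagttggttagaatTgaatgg

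The copies differ from the peak at 7 of 200 and 14 of 191 bases, with no gaps, and no strict peak was called at either copy in either replicate. The peak at chr11:3123981-3124160 had 6.45 and 3.53, and its copy on chromosome 17, of 98.333% identity, carried a peak as well, with 7.97 and 4.42. Reads from such copies cannot always be assigned to a place, so the values of these peaks are uncertain. The direction was alike in the rest of the window: 12 of 14 shared peaks without a copy were higher in replicate 2, as were 7 of 9 with a copy, with median ratios of 0.692 and 0.673. The centrin genes Cetn2 (5.67 and 2.75), Cetn3 (18.4 and 9.50) and Cetn4 (13 and 10.4) had promoter peaks in both replicates, all higher in replicate 1. Of all protein-coding genes 51.2% had promoter peaks in both, and 88.5% of all shared strict peaks were higher in replicate 1.

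**Figure D5:**
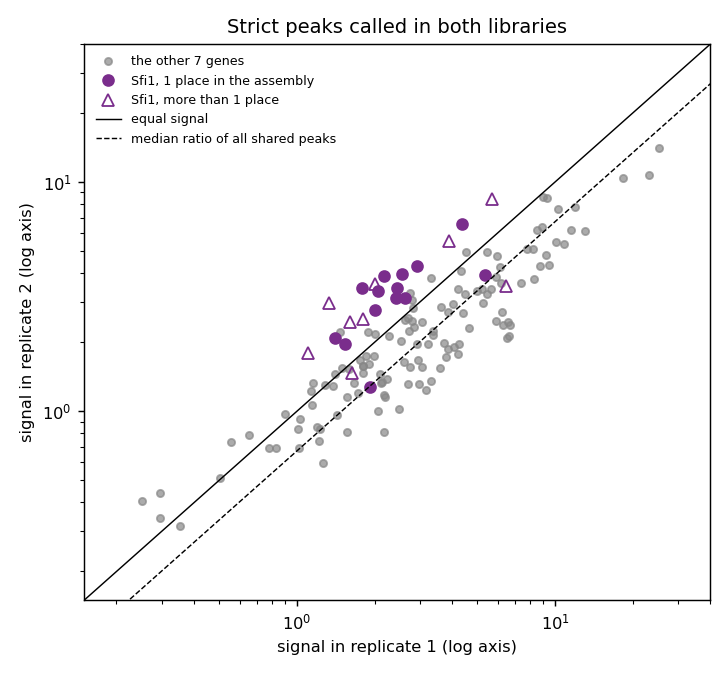
Signal in replicate 1 (x axis) against replicate 2 (y axis), both on log axes, for the strict peaks of the 8 genes called in both replicates; purple marks are Sfi1 (open triangles, more than 1 place in the assembly), grey points the other 7 genes, the solid line equal signal and the dashed line the median ratio of all shared strict peaks, 1.49. Of the 23 Sfi1 peaks 19 lie above the solid line, and 106 of the 126 others lie under it.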

How the data were processed

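DNase-seq peaks, footprints and false discovery rates were deposited for 2 libraries of mouse spleen on mm10, per the labels; no source used here names the aligner or the callers. The deposited peak lists hold the authors' signal per peak, called in each library by itself. The authors' false discovery files hold an adjusted p-value for each run of bases, and list only those under 0.05. The footprint score deposited by the authors was a constant p-value, so footprints served as positions only.

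From these files, peaks, footprints and runs within each gene of GENCODE M21 widened by 10 kb were counted. Peaks were shared from 1 base of overlap and at a start site within 1000 bases. Copies were sought with BLAST+ 2.17.0 (megablast, word size 28, 90% identity, 80% coverage, 21 chromosomes of the reference), with 2000 seeded strict peaks per library as background. Sequences come from the RefSeq copy of the mm10 assembly and carry the reference allele. Overlap, motif and copy searches were tested on simulated data. Python 3.11.15, pandas 2.3.3, numpy 2.4.6 and pysam 0.24.0 were used.

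No test was run: 2 libraries of 1 group allow none, and the members, gene lists and the limit for weak peaks were chosen with earlier results of these data known. For each member the text names the 2 strongest peaks per library, the strongest called in 1 library alone, the longest stretch without a peak or the densest 10 kb, up to 3 of the strongest neighbouring starts, and listed relatives. Any other peak in the text was picked with its value in view. Alternatives are given in the closing section.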

Additional observations from a re-analysis of the deposited data

How the results depend on the processing

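Leaving out 1 replicate gave 219 to 260 strict peaks in the 8 genes, 57.3% to 68.0% shared, 35.6% to 36.5% at start sites, 3.85% to 5.48% in multi-copy sequence and 78.5% to 85.4% with a footprint. The means over both replicates were 240 peaks, 62.7%, 36.1%, 4.66% and 82.0%. With the stronger 50% of each strict list they became 121 peaks, 75.6%, 40.8%, 7.19% and 100%. When each list was cut to its 28837 strongest peaks, 88.7% held a footprint. Leaving out peaks of signal under 0.5, an alternative chosen after seeing the data, gave 78.9% shared, 42.7% at start sites and 93.6% with a footprint. Overlap with the other replicate's larger list in place of its strict one gave 70.6% shared. The share at start sites was 32.6% with the larger lists, 33.2% in gene bodies alone, 30.7% without Fgfr2, 30.8% with RefSeq gene spans (also chosen after seeing the data), 27.2% with a window of 500 bases and 33.6% for protein-coding starts. The multi-copy share was 3.34% in gene bodies alone, 6.05% without Fgfr2, 6.15% with RefSeq spans and 3.14% as bases marked repeat over 50% of the peak. The other alternatives moved these values by less than 1 SD, or the count by less than 1.5 times. With RefSeq spans Fgfr2 fell from 83 and 48 peaks to 1 and 1, with each list reduced to 28837 peaks Psd went from 20 and 22 to 10 and 22 and Nfic from 29 and 23 to 12 and 23, and without weak peaks Glis1 went from 4 and 49 to 4 and 2. No paired analysis was possible because there is only 1 group. The SD rests on 2 libraries, and the read depth is unknown, so the absence of a weak peak in a library is not shown to be absence of opening.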
